A study of Danio rerio with 14 samples.

Results

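A set of 136 zebrafish genes was described whose levels in the sox10+ and mylz2+ cells of control larvae lay within about 4-fold of each other. These genes stood lower in the mylz2+ cells of psmb1 mutants and differed little between genotypes in the sox10+ cells. They ranged from mesenchymal transcription factors such as foxf2a and TBX1 to adhesion proteins, guidance and growth factor signals, and enzymes of the mitochondrion. At the median, 49.7% of the control level was left in the mutant mylz2+ cells, with a range of 5.83% to 64.8%. The members were chosen by the counts themselves, through the ratio of mutant to control levels in both cell types and the ratio of the cell types in controls, so their differences between the genotypes and between the cell types are given as a description, with no test. Counts were divided by the total of their library and expressed as CPM, counts per 1000000 counts. Of the 32520 genes in the tables, 9967 had a mean of at least 5 CPM in at least 1 of the 4 groups and control means, each plus 1 CPM, that lay within 4-fold of each other between the cell types. For these genes the log2 ratio of the mutant to the control mean, each plus 1 CPM, was taken in each cell type, and the median over the 9967 genes was subtracted. Members had a centred log2 ratio of -1 or less in the mylz2+ cells, a centred ratio within 0.3 of 0 in the sox10+ cells, and a CPM in every mutant mylz2+ library below that in every control mylz2+ library. All 136 genes that met these conditions were taken, since the cap of 150 was not reached, and they made up 1.36% of the 9967 genes. Levels were compared in only these sorted cells of the head, so how widely the genes are expressed elsewhere was not measured.

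The study compared larvae homozygous for a mutation in psmb1 with their siblings at 72 hours postfertilization (hpf). Mutants (M, psmb1-/-) carried the hi2939 allele, a retroviral insertion in the first intron from which some wild-type transcript is still made, and controls (WH) were pooled wild-type and heterozygous larvae (psmb1+/+;+/-). Each sample held 20 to 25 heads, dissociated with liberase, from which 7000 cells positive for a sox10:kaede reporter (neural crest and chondrocytes) or 1500 mylz2+ cells (muscle) were sorted. There were 4 WH and 3 M libraries of each cell type, made with the SMART-Seq HT kit and amplified, and the labels name them biological replicates. The sox10 reporter is also active in cells outside the neural crest lineage, such as the ear, and mylz2, a fast muscle myosin light chain, marks muscle that has begun to differentiate. Values of single libraries are given below for WH replicates 1, 2, 3 and 4 and then for M replicates 1, 3 and 4, since no M replicate 2 is among the samples. The mylz2+ library titled M replicate 3 carries the number 2 in its description and is called replicate 3 here.

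The proteasome is the protease complex that degrades ubiquitin-tagged proteins, and psmb1 encodes one of the beta subunits of its catalytic core. Muscles of the jaw and pharyngeal arches arise from cranial mesoderm and are patterned together with the neural crest cells that form the cartilage, so many regulators are used in both lineages. Muscle fibres additionally depend on attachment to the matrix through the dystroglycan complex and on oxidative metabolism in mitochondria.

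The 14 libraries held between 54824619 and 103563447 counts, and the mutant mylz2+ libraries were the deepest of the 4 groups, at 83947537 to 103563447. At these totals 3 counts, taken as the floor, corresponded to 0.0290 to 0.0547 CPM, which covers counting error only. psmb1 itself stood at 126 ± 9.82 CPM in WH mylz2+ cells (SD, n = 4) and 92.1 ± 8.55 in mutants (n = 3). With TMM scaling factors it fell by 0.85 on the log2 scale (SE 0.14, adjusted p = 0.00161 by the quasi-likelihood test of edgeR, with the Benjamini-Hochberg adjustment). With library totals only, its log2 change was -0.45 (adjusted p = 0.0159, edgeR). CPM values rest on library totals, while fitted changes use TMM factors. These were 0.805 to 0.926 in WH and 1.05 to 1.27 in mutant mylz2+ libraries. Fitted changes in mylz2+ cells are therefore lower than the CPM values alone would give. In the sox10+ cells psmb1 was at 77.0 ± 16.2 CPM in WH and 86.8 ± 12.2 in mutants, and the libraries overlapped (log2 change 0.04, adjusted p = 0.956 by the same edgeR test). The sox10+ libraries labelled mutant were thus not marked by a lower level of the targeted gene, and their labels were kept as given. The other 58 proteasome genes, none of them a member, summed to 6252 to 7753 CPM in WH mylz2+ libraries and 23220 to 25894 in mutants, and to 2873 to 4137 and 14180 to 16284 in the sox10+ libraries. Summed levels of 14 muscle markers were between 133254 and 209487 CPM in the mylz2+ libraries and at most 2204 CPM in the sox10+ libraries. Those of 18 chondrocyte markers reached at most 887 CPM in the mylz2+ libraries. In the sox10+ cells the chondrocyte markers summed to 132617 to 187455 CPM in WH and 81242 to 114432 CPM in mutants, and 2 of the 18 were called lower. Neuron and glia markers there summed to 2491 to 4273 CPM in WH and 1157 to 1332 CPM in mutants, with 7 of 16 called lower. Sums of the other marker lists overlapped between the genotypes in the sox10+ cells. In the mylz2+ cells the muscle markers were lower in every mutant (133254 to 192707 CPM) than in any WH library (196266 to 209487), and 9 of the 14 were called lower. Markers of dissociation and immediate early response were higher in every mutant (29650 to 37104 CPM) than in any WH mylz2+ library (19209 to 23144). Of these 19 genes, 11 were above every WH library in all mutants, while 5 were called higher and 5 lower. The heat shock genes hsp70.3 and hsp70l were the largest parts of the sums. hsp70.3 had means of 6137 CPM in WH and 10943 CPM in mutant mylz2+ cells, and hsp70l 8781 and 13569 CPM. The immediate early genes egr1 and NR4A1 were among those called lower, and FOSL1 and egr2a among those called higher. Fitted log2 changes were -0.68 and -0.73 for the first pair and 1.13 and 0.72 for the second. The immediate early genes thus moved in both directions, and the sums do not describe them as a whole. The summed markers of 8 further cell types overlapped between the genotypes in the mylz2+ libraries, where 9 of their 93 markers tested were called lower and 4 higher. Bone, tendon and fibroblast markers gave 3 of the 9, and photoreceptor and lens markers 3 more. The 9 endothelial markers, of which none was called, had a median log2 change of -1.15 at sums of at most 52.0 CPM in WH and 22.5 CPM in mutants. The part of these shifts in the levels of the members was not tested.

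Of the 9967 genes, 615 (6.17%) had a centred ratio of -1 or less in the mylz2+ cells. In the sox10+ cells, 401 of these had a centred ratio of -0.3 or less, 37 had 0.3 or more and 177 lay between. Members were the 136 of these 177 whose mylz2+ libraries did not overlap, a separation that 7.78% of the 9967 genes showed. The centred ratios of the members in the mylz2+ cells ran from -3.67 to -1.01 with a median of -1.28, and 31 were at -1.5 or less and 14 at -2 or less. Centring mattered: the medians subtracted were 0.39 in the mylz2+ cells and 0.23 in the sox10+ cells. Before centring, the median ratio of the members was -0.89 (-3.28 to -0.62), 49 of the 136 were at -1 or less, and only 58 genes met the conditions, 38 of them members.

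**Figure D1:**
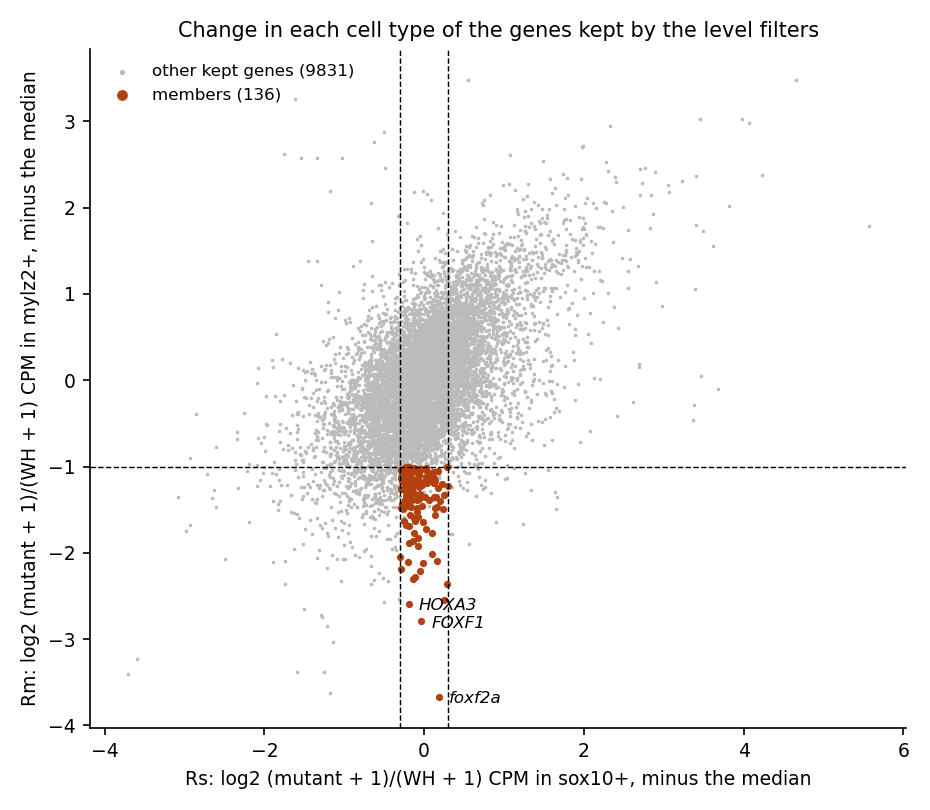
Centred log2 ratio of mutant to control in the sox10+ cells (horizontal axis) against that in the mylz2+ cells (vertical axis) for the 9967 genes kept by the level filters, with the 136 members marked and the thresholds drawn as lines. The members lie between -0.3 and 0.3 on the horizontal axis and between -3.67 and -1.01 on the vertical axis.

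Genes on either side of each threshold had nearly the same values. Just inside the limit of the mylz2+ ratio were micos13 at -1.01, EYA4 at -1.01 and MT-ND6 at -1.02. Genes just outside included the carrier gene slc25a24 and the acetyltransferase gene CRAT, the last at -0.99. Near the upper limit of the sox10+ ratio, rbm12ba (0.30), ccn1l1 (0.29) and micos13 (0.28) were members, while fam131aa (0.33), CAMK1 (0.34) and GDNF (0.42) were not. Near the lower limit, DLX3 (-0.30), SYPL2 (-0.29) and PER1 (-0.29) were members and FRMD5 (-0.30), stom (-0.30) and nat14 (-0.31) were not.

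Summed over all members, the level was 7406 ± 643 CPM in WH mylz2+ cells and 3837 ± 416 in mutants, and 6474 ± 214 and 6836 ± 257 CPM in WH and mutant sox10+ cells. The highest mutant mylz2+ library, replicate 1 at 4294 CPM, stood below the lowest WH library, replicate 1 at 6649 CPM. In bulk samples of sorted cells, fewer cells of a type and less RNA per cell cannot be told apart. In the fit over all genes, 134 of the 136 members were called lower in mutant mylz2+ cells, where 11.6% of the 20413 genes tested were called lower. This contrast was used to choose the members, so nothing is read from that count. The median log2 change of the members was -1.42, beside 0.01 for all genes tested. With library totals in place of TMM factors all genes shifted to a median of 0.41, and the median of the members was -1.01. Each of the 136 was below 0 there, which follows from the rule, since it used the same totals.

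**Figure D2:**
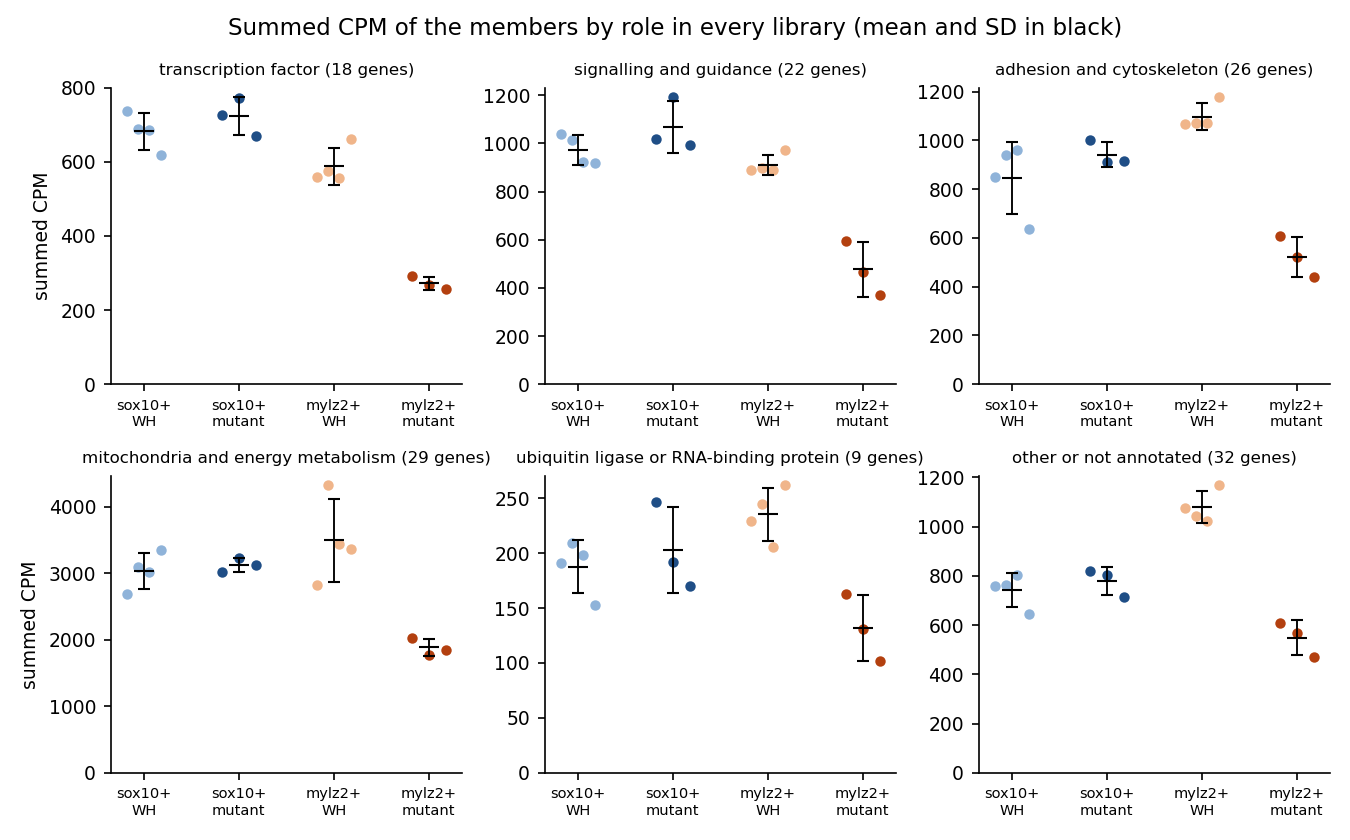
Summed CPM of the members of each role group (vertical axes), with a point per library and the mean and SD of each group in black; groups of cell type and genotype stand along the horizontal axes. In each of the 6 role groups the 3 mutant mylz2+ libraries lie below the 4 WH mylz2+ libraries, and the sox10+ libraries of the genotypes lie close together.

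The 18 transcriptional regulators included the member with the lowest centred ratio, -3.67, and had a median of -1.38. Summed, they stood at 588 ± 49.7 CPM in WH mylz2+ cells and 272 ± 17.9 CPM in mutants, and 12 of the 18 were higher in sox10+ than in mylz2+ cells of controls. foxf2a, a forkhead factor of pharyngeal and gut mesenchyme, was at 15.3, 25.8, 14.1 and 25.1 CPM in the WH mylz2+ libraries and at 1.78, 1.14 and 0.596 CPM in the mutants. Its sox10+ values were 78.9, 58.9, 80.6 and 64.5 CPM in WH and 125, 82.3 and 76.9 CPM in mutants. Every mutant mylz2+ library was thus at least 7.93 times below the lowest WH library, the widest gap of the set, and the sox10+ libraries overlapped. FOXF1 (ENSDARG00000015399), a related forkhead factor, showed 8.48, 6.94, 5.47 and 8.20 CPM in WH mylz2+ cells and 1.27, 0.270 and 0.143 CPM in mutants. The arch and hindbrain patterning gene HOXA3 (ENSDARG00000103862) had 13.2, 16.8, 15.6 and 30.7 CPM in WH and 2.76, 2.84 and 4.44 CPM in mutants, so 17.6% of its level was left. Fitted log2 changes of these genes were -4.54 (SE 0.42), -4.12 (SE 0.68) and -2.88 (SE 0.37).

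TBX1, a T-box factor needed in pharyngeal mesoderm for head muscle, was at 141, 143, 149.9 and 172 CPM in WH mylz2+ libraries and 61.5, 46.6 and 47.1 CPM in mutants. Its sox10+ values were 75.9, 78.8, 96.6 and 76.9 CPM in WH and 76.2, 102 and 95.6 CPM in mutants. In the mylz2+ cells the lowest WH library was 2.30 times the highest mutant, while in the sox10+ cells the libraries of the genotypes were mixed. DLX3, a distal-less homeobox gene of the arches and ear, stood at 22.6, 29.0, 34.8 and 40.4 CPM in WH mylz2+ cells and 9.16, 6.30 and 12.6 CPM in mutants. EYA4, a transcriptional coactivator of the Eya family, was among the members nearest the threshold, with 74.4, 66.4, 64.2 and 74.0 CPM in WH and 44.8, 48.6 and 41.8 CPM in mutants. The other regulators included HOXB2 (ENSDARG00000000175), with 19.0% of its level left, the clock repressor PER1 (44.5%), the antiproliferative factor TOB1 (63.4%), the HMG-box repressor HBP1 (47.3%) and the homeobox genes LHX2 and ISL2 (49.6% and 55.1%). NFIC was 1 of the 2 members not called lower in the fit over all genes. It was at only 1.09 to 3.22 CPM in the WH mylz2+ libraries and 0.435 to 0.989 CPM in the mutants.

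**Figure D3:**
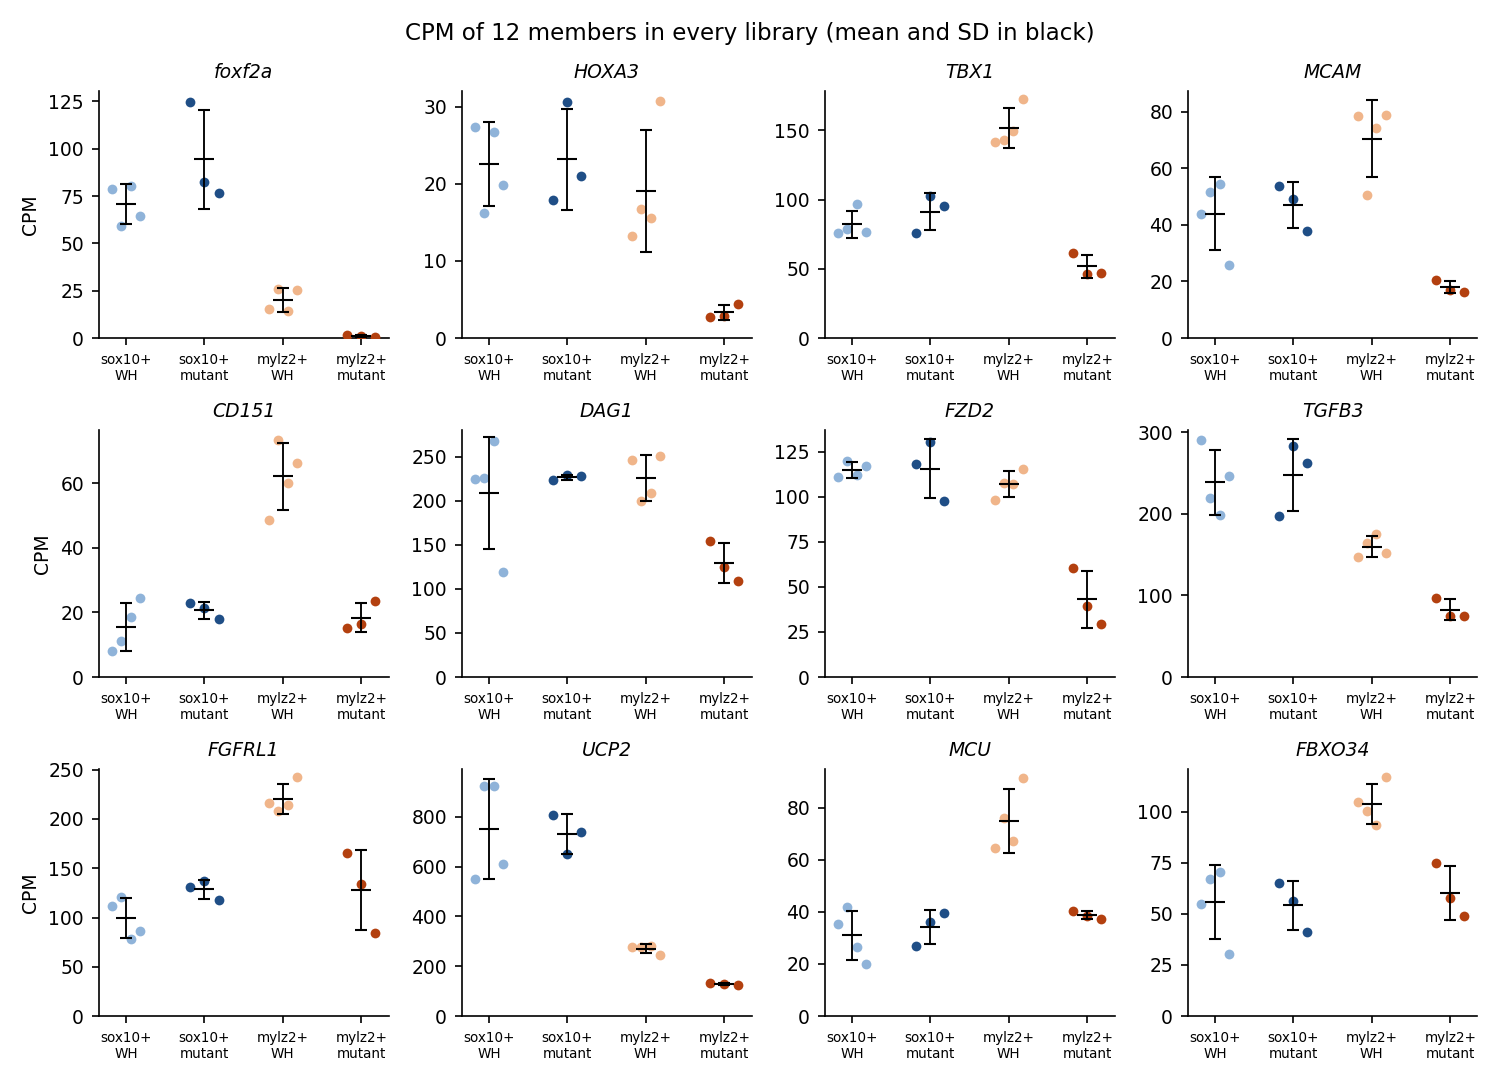
CPM of 12 members in each library (vertical axes), with 1 panel per gene, a point per library and the mean and SD of each group in black; groups of cell type and genotype stand along the horizontal axes. In every panel the 3 mutant mylz2+ libraries lie below the 4 WH mylz2+ libraries, while the sox10+ libraries of the genotypes overlap.

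Adhesion and cytoskeletal genes formed a group of 26 with a median centred ratio of -1.39. Their summed level was 1096 ± 55.6 CPM in WH mylz2+ cells and 522 ± 83.0 CPM in mutants, and in 8 of them the lowest WH library was more than 2 times the highest mutant. MCAM (ENSDARG00000005368), a cell adhesion molecule of the immunoglobulin family, was at 78.6, 50.4, 74.1 and 78.8 CPM in WH mylz2+ libraries and 20.4, 17.0 and 16.4 CPM in mutants. WH replicate 2 was the low library of its group, at 2.47 times the highest mutant. CD151, a tetraspanin that associates with laminin-binding integrins, had 48.8, 73.4, 60.0 and 66.3 CPM in WH and 15.2, 16.4 and 23.5 CPM in mutants. sox10+ levels of CD151 varied widely among WH libraries, from 7.92 to 24.4 CPM, and the mutants at 17.8 to 23.0 CPM lay inside that range. PDLIM5 (ENSDARG00000101777), a PDZ and LIM domain protein that binds actin filaments, was at 23.3, 33.5, 32.1 and 33.6 CPM in WH mylz2+ cells and 10.5, 8.00 and 5.73 CPM in mutants. The fitted log2 changes of MCAM, CD151 and PDLIM5 were -2.36 (SE 0.16), -2.14 (SE 0.25) and -2.34 (SE 0.23).

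Further members included genes of the matrix, of the dystroglycan complex and of the cytoskeleton. The matricellular gene ccn1l1 had 10.9, 27.2, 10.5 and 18.5 CPM in WH mylz2+ libraries and 4.56, 3.61 and 2.38 CPM in mutants, and the metalloproteinase adam19b had 18.3, 21.6, 19.3 and 30.8 and 8.03, 3.22 and 5.77 CPM. Of the microtubule-associated gene mtus1a, 24.8% of the level was left. WH libraries 2 and 4 were the high ones for ccn1l1. As the rule required, no mutant reached the lowest WH value of ccn1l1 or adam19b. DAG1, which encodes dystroglycan, the laminin receptor that links muscle fibres to the basement membrane, was at 246, 199, 209 and 251 CPM in WH mylz2+ cells and 154, 125 and 109 CPM in mutants. Its sox10+ values, 224, 225, 268 and 119 CPM in WH and 224, 229 and 228 CPM in mutants, overlapped, with WH replicate 4 lowest. DTNA, a dystrobrevin of the same complex, and LARGE2, a glycosyltransferase that can extend the laminin-binding glycan of dystroglycan, had 60.1% and 42.6% of the WH level left. DTNA was the most narrowly separated of all members: its lowest WH library was 1.01 times the highest mutant. Of jam2a, a receptor needed for myoblast fusion in zebrafish, 62.6% was left, and of PXN, the focal adhesion adaptor paxillin, 49.9%. eps8l1b, an actin regulator of the Eps8 family, was the other member not called, at 1.27 to 1.85 CPM in WH and 0 to 1.01 CPM in mutants.

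Ligands, receptors and regulators of signalling made up 22 members, with a summed level of 912 ± 41.5 CPM in WH mylz2+ cells and 477 ± 114 CPM in mutants. TGFB3, a TGF-beta ligand, was at 147, 165, 175 and 152 CPM in WH mylz2+ libraries and 97.1, 74.3 and 75.4 CPM in mutants. The sox10+ libraries had 289.9, 219, 198 and 246 CPM in WH and 198, 283 and 262 CPM in mutants, so only the mylz2+ libraries were separate. LTBP1, which holds latent TGF-beta in the matrix, had 50.1% of its WH mylz2+ level left. The pathway's inhibitors were members too: skib, a Ski corepressor, had 57.6, 61.6, 69.2 and 70.6 CPM in WH and 43.2, 36.5 and 26.8 CPM in mutants, and the inhibitory Smad SMAD6 had 63.9% left.

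FZD2, a Frizzled receptor for Wnt ligands, was at 98.4, 107, 107 and 115 CPM in WH mylz2+ libraries and 60.4, 39.5 and 29.4 CPM in mutants. It was nearly level across the sox10+ libraries, at 111 to 119.8 CPM in WH and 97.8 to 130.4 CPM in mutants. The kinase gene gsk3bb, a zebrafish copy of the Wnt pathway kinase GSK3-beta, was much weaker, at 5.45, 3.14, 4.97 and 4.40 CPM in WH mylz2+ cells and 2.35, 2.84 and 1.39 CPM in mutants. DKK3, of the Dickkopf family, had 43.5% of its WH mylz2+ level left, LYPD6, which enhances Wnt signalling in zebrafish, 35.7%, and APCDD1L, a relative of a Wnt inhibitor, 37.3%. FGFRL1, an FGF receptor without a kinase domain, stood at 216, 208, 214 and 243 CPM in WH mylz2+ libraries and 165, 134 and 84.6 CPM in mutants. Its mutant libraries differed more than its WH libraries, with replicate 4 lowest. The guidance ligands sema3h and sema3ga and the semaphorin receptor PLXNA2 had 31.8%, 48.0% and 58.5% of the WH level left. The lowest remaining share in this group was that of rin1b, an exchange factor for Rab5 (20.1%), and dusp14, a phosphatase of MAP kinases, had 34.6% left. rin1b was low throughout, at 3.79 to 7.29 CPM in WH mylz2+ cells and 0.107 to 2.20 CPM in mutants.

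Mitochondrial and metabolic genes were the largest annotated group, with 29 members. In controls, 24 of the 29 were higher in mylz2+ than in sox10+ cells, beside 78 of all 136 members (57.4%) and 21.1% of the 9967 genes. The control levels of both cell types entered the rule, so nothing is read from the difference between these shares. Their sum was 3496 ± 623 CPM in WH mylz2+ cells and 1884 ± 130 CPM in mutants. Much of it came from 5 genes of the mitochondrial genome, MT-ATP6, mt-atp8, MT-ND1, MT-ND5 and MT-ND6, which encode subunits of ATP synthase and of complex I. MT-ATP6 had 769.8, 1742, 1186 and 1053 CPM in WH mylz2+ libraries and 627, 575 and 639 CPM in mutants, with WH replicate 2 high and WH replicate 1 closest to the mutants. Without these 5 genes the members summed to 5144 to 5781 CPM in WH mylz2+ libraries and 2385 to 3186 CPM in mutants. Every member was separate in the mylz2+ cells by the rule, so the separation of this sum was fixed.

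Among nuclear genes, UCP2, an uncoupling protein of the inner membrane, was at 279, 276, 281 and 245 CPM in WH mylz2+ libraries and 134, 128 and 125 CPM in mutants. In sox10+ cells UCP2 was higher, at 550.4 to 925 CPM in WH and 649 to 807 CPM in mutants. MCU, the pore of the mitochondrial calcium uniporter, had 64.5, 76.1, 67.3 and 91.5 CPM in WH mylz2+ cells and 40.3, 38.4 and 37.2 CPM in mutants. The 3 mutant libraries of UCP2 and of MCU were close together and clear of the WH libraries. MICU2, a gatekeeper of the same channel, had 56.2% of its WH level left. COQ8A (ENSDARG00000020123), COQ7 and COQ10B, which serve the synthesis or use of coenzyme Q, had 40.7%, 51.9% and 63.3% left. IVD, which oxidises isovaleryl-CoA from leucine, stood at 146, 125, 126 and 145 CPM in WH mylz2+ libraries and 90.1, 75.2 and 78.4 CPM in mutants, and ACADS, the short-chain acyl-CoA dehydrogenase, at 41.5 to 53.9 and 27.7 to 31.7 CPM. The related enzyme genes GCDH, AUH and MLYCD had 57.9%, 63.6% and 39.2% left, and the fatty acid transporter SLC27A1 62.1%. The lowest share of this group was that of CTPS1 (ENSDARG00000098386), which makes CTP, at 13.0, 15.3, 11.5 and 17.4 CPM in WH mylz2+ cells and 5.21, 4.68 and 1.07 CPM in mutants. micos13, a part of the cristae-organising MICOS complex, kept the largest share of all members, 64.8%.

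The ubiquitin ligase and RNA-binding genes were 9 members, which summed to 235 ± 24.0 CPM in WH mylz2+ cells and 132 ± 30.1 CPM in mutants. FBXO34, an F-box protein that gives a ligase its substrate, was at 105, 100.4, 93.4 and 117 CPM in WH mylz2+ libraries and 74.8, 57.8 and 48.7 CPM in mutants. Its sox10+ libraries, at 30.6 to 70.7 CPM in WH and 40.9 to 65.0 CPM in mutants, overlapped. The RING ligase TRIM3 had 29.7, 33.6, 24.2 and 36.5 CPM in WH mylz2+ cells and 20.2, 14.7 and 15.5 CPM in mutants, and the F-box genes FBXO48 and FBXL20 had 53.7% and 19.8% of the WH level left. RBM15, an adaptor of the RNA methylation complex, and rbm12ba were among the members with the narrowest gaps, 1.02 and 1.03 times between the lowest WH and the highest mutant library.

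The 32 remaining members had other roles or no annotated symbol, and summed to 1078 ± 65.1 CPM in WH mylz2+ cells and 549 ± 72.5 CPM in mutants. ssuh2rs1 was the highest of them in WH mylz2+ cells, at 273, 264, 251 and 314 CPM, and had 154, 136 and 114 CPM in mutants. NDRG2, a member of the NDRG family of stress- and differentiation-responsive genes, was at 216, 179, 178 and 211 CPM in WH and 118, 107 and 94.6 CPM in mutants. SYPL2, whose product lies at the triad junction where muscle excitation is coupled to calcium release, had 99.4, 100.3, 107 and 134 CPM in WH and 70.6, 71.2 and 54.7 CPM in mutants. Each of these 3 genes was separate between the genotypes in the mylz2+ cells and overlapped in the sox10+ cells. ANO5, an anoctamin of muscle membranes, ANO1, a calcium-activated chloride channel, and DPP6, an auxiliary subunit of potassium channels, had 47.3%, 46.4% and 30.1% of the WH level left.

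The members also varied among themselves in how far the libraries were apart. The lowest WH library was 1.01 to 7.93 times the highest mutant, with a median of 1.38. It was more than 2 times for 19 members and less than 1.1 times for 9. Mutant replicate 4 was the lowest library for 80 of the 136 members, replicate 3 for 37 and replicate 1 for 19. Of the WH libraries, replicate 4 was the highest for 53 members and replicate 3 the lowest for 52. The median coefficient of variation of the members was 16.3% among WH and 22.7% among mutant mylz2+ libraries, and 18.6% and 17.8% for the 9967 genes. With mutant mylz2+ replicate 1 left out of the rule, 203 genes met it, 132 of them members, and with each other library left out between 114 and 156 genes did. Membership also moved with scaling, since TMM-scaled totals gave 185 genes, of which 91 were members.

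In the sox10+ cells the rule allowed the members only small differences. Their centred ratios had a median of -0.13 and were negative for 99 of the 136, while before centring 116 were above 0. Mutant and WH sox10+ libraries overlapped for all but 2 members, AUH and si:dkey-30d10.1, where 25.1% of the 9967 genes did not overlap. No member was called in the sox10+ cells in either direction, where 3.71% of the 21476 genes tested were called (1.61% lower and 2.1% higher), and none had an unadjusted p under 0.05 or was called by DESeq2. These counts follow from the rule. For the members, the 95% intervals of the sox10+ log2 change had a median half-width of 0.72, beside 0.53 in the mylz2+ cells. The rule chose small sox10+ ratios and separate mylz2+ libraries, and widths over all genes are not given. The widths and the counts of intervals below therefore describe the members only. For 87 members the sox10+ interval lay within 1 of 0, and for 30 it reached -1, so that a loss as large as the mylz2+ threshold was within the interval. The mylz2+ and sox10+ intervals did not overlap for 90 of the 136. The rule favours such a gap and the share over all genes is not given, so nothing is read from that count. As a term for the difference between cell types, 37 members were called lower in mylz2+ than in sox10+ cells, where 0.839% of the 23232 genes tested were (1.3% in either direction), again on the contrasts that chose them. That count was between 11 and 24 with any 1 of the mutant libraries left out, lowest without mutant mylz2+ replicate 3. It was 3 with a replicate block, 19 with library totals and 96 by DESeq2.

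**Figure D4:**
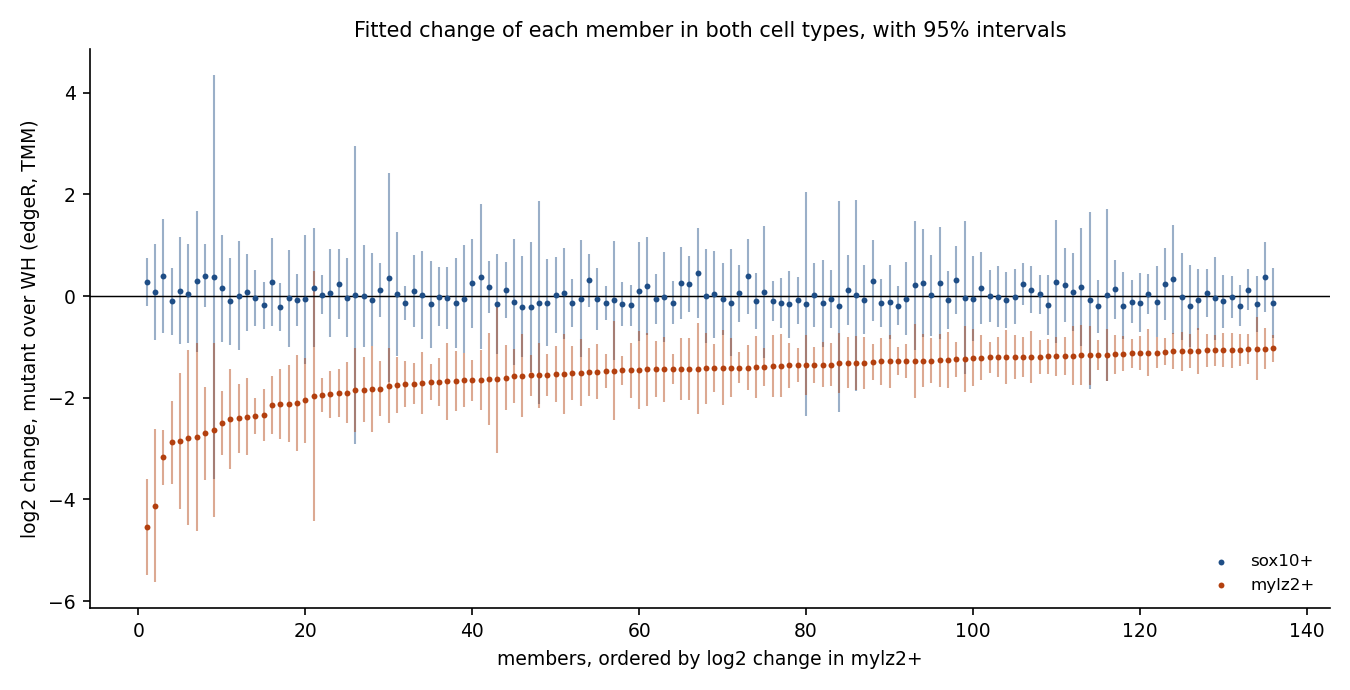
Fitted log2 change of mutants over controls (vertical axis) with 95% intervals for each of the 136 members, ordered along the horizontal axis by the change in mylz2+ cells, for mylz2+ and for sox10+ cells. The mylz2+ estimates run from -4.54 for foxf2a to -1.03 for EYA4 and micos13, and the sox10+ estimates from -0.22 for PER1 to 0.45 for rbm12ba.

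Genes outside the set were tested, since the rule did not choose them. Of 39 pathway lists, 5 held at least 3 members, and the other genes of these lists were counted in the fit over all genes. The 5 lists were picked because they hold members, so their calls give the members no independent support. Lists with 0 members moved too. With TMM factors, 90 of 129 sarcomere and 65 of 111 nuclear oxidative phosphorylation genes fell in mylz2+ cells. There 48 of 55 proteasome genes rose. Counts with library totals are not given for these lists. Over all genes tested, 11.6% fell and 10.7% rose in mylz2+ cells, and 1.61% and 2.1% in sox10+ cells. The myogenic regulators and myoblast fusion genes hold TBX1, jam2a and EYA4. Of the 45 others tested, 21 (46.7%) fell in mutant mylz2+ cells and 0 rose. With unadjusted p under 0.05 the number that rose was also 0, and DESeq2 called 0. The median log2 change of the 45 genes was -0.89, and -0.42 with library totals, under which 12 fell. MYF6, a myogenic regulatory factor also called MRF4, was at 23.2, 23.5, 23.1 and 23.1 CPM in WH mylz2+ libraries and 12.3, 9.24 and 7.34 CPM in mutants, and fell by 1.68 on the log2 scale (SE 0.18, adjusted p = 0.000196, edgeR). MYOG fell by 1.08 (SE 0.19, adjusted p = 0.00254, edgeR), and MEF2A, a MADS-box activator of muscle genes, by 1.34 (SE 0.15, adjusted p = 0.000251, edgeR). None of the 42 list genes tested in sox10+ cells was called in either direction, with 4 lower and 2 higher at an unadjusted p under 0.05 and 2 lower and 1 higher by DESeq2.

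The fatty acid and amino acid oxidation list holds GCDH, IVD and ACADS. Of the 60 others, 25 (41.7%) fell and 8 (13.3%) rose in mutant mylz2+ cells. Their median of -0.30 turned to 0.08 with library totals, where 14 fell and 15 rose. CPT1B, the muscle form of the enzyme that brings long-chain fatty acids into mitochondria, was at 138, 111, 126 and 116 CPM in WH mylz2+ libraries and 33.3, 21.9 and 20.0 CPM in mutants. It fell by 2.69 on the log2 scale (SE 0.18, adjusted p = 4.08e-05, edgeR), and its change differed from that in the sox10+ cells by -2.75 (SE 0.29, adjusted p = 0.000650, edgeR). BCKDHB, a subunit of the branched-chain ketoacid dehydrogenase, fell by 1.05 with TMM factors (SE 0.14, adjusted p = 0.000633, edgeR). On library totals it went from 179 to 114 CPM. HADH, a dehydrogenase of beta oxidation, went the other way, from 103 to 115 CPM in WH to 230.2 to 257 CPM in mutants. Its log2 change with TMM factors was 0.75 (SE 0.11, adjusted p = 0.000749, edgeR). Among the sox10+ libraries 0 of the 60 fell and 4 rose, where 5 were lower at an unadjusted p under 0.05 and 4 by DESeq2.

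The TGF-beta and BMP list has TGFB3, LTBP1, skib and SMAD6 among the members. Of its 72 others, 14 (19.4%) fell and 3 (4.17%) rose in mutant mylz2+ cells. The median was -0.21, turning to 0.19 with library totals, under which 5 fell and 7 rose. The total of 17 called genes dropped to 8 without mutant mylz2+ replicate 3. nog2, a secreted BMP antagonist, was at 88.1, 107, 91.7 and 97.1 CPM in WH mylz2+ libraries and 52.6, 37.0 and 40.8 CPM in mutants, and fell by 1.54 (SE 0.18, adjusted p = 0.000243, edgeR). TGFBR2, a receptor for TGF-beta ligands, fell by 1.29 (SE 0.16, adjusted p = 0.000340, edgeR). BMP1, a protease that processes procollagen and chordin, was among the genes that rose, from 0.256 to 0.673 CPM to 1.29 to 4.58 CPM (log2 change 2.40, adjusted p = 0.0134, edgeR), a call lost without mutant replicate 1 or 3 (adjusted p up to 0.0735, edgeR). The sox10+ fit called 0 of 79, with 18 lower and 0 higher at an unadjusted p under 0.05, and 10 lower and 0 higher by DESeq2.

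The Wnt list has FZD2, DKK3 and gsk3bb among the members. Of its 70 others, 15 (21.4%) fell and 2 (2.86%) rose in mutant mylz2+ cells. Their median of -0.26 turned to 0.16 with library totals, where 4 fell and 8 rose. The 17 called genes dropped to 9 without mutant mylz2+ replicate 3, 8 without mutant replicate 4 and 10 without WH replicate 4. FZD7, a Frizzled receptor like FZD2, was at 75.2, 73.3, 80.2 and 94.4 CPM in WH mylz2+ libraries and 42.3, 40.2 and 25.7 CPM in mutants, and fell by 1.58 (SE 0.16, adjusted p = 0.000124, edgeR). AXIN2, a scaffold of the beta-catenin destruction complex and a known Wnt target, fell by 0.97 (SE 0.14, adjusted p = 0.000788, edgeR). PORCN, the acyltransferase that Wnt ligands need for secretion, rose from 3.15 to 11.2 CPM (log2 change 1.43, adjusted p = 0.00121, edgeR). The sox10+ fit called 0 of 72, with 9 lower and 2 higher at an unadjusted p under 0.05, and 4 and 2 by DESeq2.

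The ubiquitin ligase and deubiquitinase list, with FBXO34, TRIM3, FBXO48 and FBXL20 among the members, had calls in both directions: 36 of the 345 others fell (10.4%) and 59 rose (17.1%), beside 11.6% and 10.7% of all genes tested, and 14 fell and 113 rose with library totals. Its median was 0.06, and 0.46 with library totals. KLHL41 (ENSDARG00000068888), a Kelch adaptor of striated muscle, was at 71.5, 66.7, 77.1 and 94.9 CPM in WH mylz2+ libraries and 34.6, 32.2 and 28.2 CPM in mutants, and fell by 1.69 (SE 0.14, adjusted p = 5.57e-05, edgeR). UBA6, a ubiquitin-activating enzyme, rose from 10.1 to 15.0 CPM to 82.9 to 124 CPM (log2 change 2.70, SE 0.14, adjusted p = 3.34e-05, edgeR). USP14, a deubiquitinase of the proteasome, rose by 1.44 (SE 0.11, adjusted p = 4.92e-05, edgeR). In the sox10+ cells 2 of 334 fell and 18 rose, where DESeq2 called 8 lower and 41 higher.

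Many zebrafish genes have a duplicate from the genome duplication of teleosts, and 53 members had another gene of the same or a sister symbol, taken here as a copy, 55 copies in all. No copy was itself a member. Some copies, such as those of foxf2a, MCAM and CD151, failed the level filters and could not be members. Of the 9967 genes that passed, 1.36% were members, so nothing is read from the absence of copies. Of 53 copies tested, 11 (20.8%) fell and 2 rose in mutant mylz2+ cells, where 11.6% of all genes tested fell. Their median log2 change was -0.36, and 0.07 with library totals, under which 5 fell and 3 rose. Without mutant mylz2+ replicate 3 or 4, 6 and 7 copies fell. foxf2b, the copy of foxf2a, was at 2.79, 3.49, 1.40 and 3.72 CPM in WH mylz2+ libraries and 3.37, 4.52 and 0.596 CPM in mutants (log2 change -0.49, SE 0.59, adjusted p = 0.643, edgeR). The copy of ISL2 (ENSDARG00000053499) fell by 1.94 (SE 0.30, adjusted p = 0.00121, edgeR), from 16.7 to 21.1 CPM to 3.46 to 8.14 CPM. For PDLIM5, the copy ENSDARG00000027600 fell as well, from 395 to 414 to 317 to 323 CPM (log2 change -0.72, adjusted p = 0.00171, edgeR). With library totals its log2 change was -0.32 (adjusted p = 0.0173, edgeR). Copies of CTPS1 (ENSDARG00000030700) and PPP4C (ENSDARG00000076439) rose, by 0.57 and 0.88 on the log2 scale (adjusted p = 0.00881 and 0.000666, edgeR). Reads that copies share could have been divided between them by the counting, so values of near-identical copies are uncertain.

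**Figure D5:**
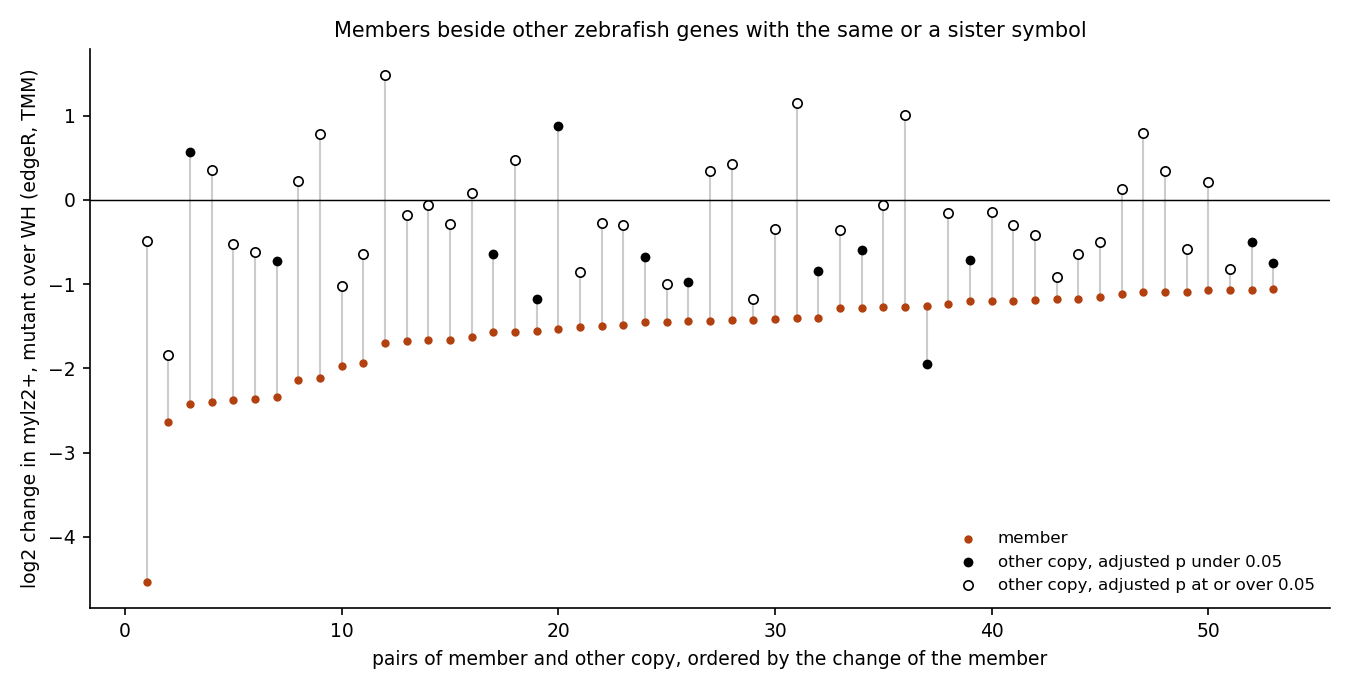
Log2 change in mutant mylz2+ cells (vertical axis) of members, in orange, and of their copies, in black, for 53 pairs ordered along the horizontal axis by the change of the member; filled black circles are copies with an adjusted p under 0.05. The members lie low by choice, while the copies spread on both sides of 0 with a median of -0.36.

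Further relatives of the members are given as values, since these families were drawn up after the members were known. All 8 other protein-coding genes of the mitochondrial genome tested were below 0 in mutant mylz2+ cells, with a median log2 change of -0.73, and -0.32 with library totals. Their median in the sox10+ cells was 0.04. The mylz2+ libraries were separate for MT-ND2, but WH replicate 1 lay below every mutant for MT-CO1, MT-CO2 and MT-ND3. Of the other genes of the dystroglycan and dystrophin complex, 18 of 23 were below 0 (median -0.61), and 15 with library totals. The same held for 20 of 28 other HOX genes (median -0.84), 35 of 50 other forkhead genes (median -0.50) and 16 of 18 other class 3 semaphorins and plexin A genes (median -0.54), and for 16, 28 and 13 of them with library totals. Coenzyme Q genes were below 0 for 9 of 11 (median -0.29) but for 5 of 11 with library totals. Other uniporter genes went the other way at the median, 0.26, with 3 of 6 below 0. With library totals their median was 0.66, with 2 of 6 below 0.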

How the data were processed

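RNA-Seq was performed on sorted sox10+ and mylz2+ cells from dissected heads. Per the labels and the methods of the study, the authors aligned reads to GRCz11 with STAR and deposited whole-number counts per Ensembl gene, without normalization. The counting tool and strandedness are not given in the sources used here. All 14 columns were matched to samples by name, and 0 columns belonged to no sample. Symbols came from a gene name table that matched 29201 of the 32520 identifiers, and upper-case symbols may be shared by several zebrafish genes.

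CPM was computed on column totals with a pseudocount of 1 CPM in the ratios. Mutants were compared with WH libraries in each cell type by edgeR 4.0.16 in R 4.3.3 (quasi-likelihood test, TMM factors, default filter on low counts, Benjamini-Hochberg adjustment over all genes tested, threshold 0.05), and cell types by an interaction term over all 14 libraries. As alternatives, DESeq2 1.42.0, other scalings and filters and a replicate block were run, and each library was left out in turn. Same-numbered WH and M samples are different larvae, and their deviations from the group means correlated between -0.06 and 0.05, so they were not treated as pairs. The methods state that siblings were matched by clutch, but no source used here says that a shared number marks a shared clutch. On simulated counts with 200 genes changed 4-fold, the mylz2+ test recovered 196 with 10 false calls (19579 genes) and the sox10+ test 150 with 6 (20612 genes). The changed genes were drawn from those with a mean above 5 CPM and changed up or down at random. The spread was set by the level of each gene, and no difference in scaling between the genotypes was simulated. Recovery of weaker genes or smaller changes was not measured. pandas 2.3.3 was used for tables and matplotlib 3.10.9 for plots.

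The members and the gene lists were chosen with earlier results of these data known. The members named by rule were the 12 with the lowest mylz2+ ratio, the 10 with the highest mean CPM in WH mylz2+ cells, the 2 highest of each pathway list with at least 3 members, and the genes nearest each threshold. Every other gene named was chosen after its values were seen, and role groups and further families were drawn up after the members were known. The planned search of promoters for motifs was not run, since no promoter sequences were used here. Results of some genes are not reported here.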

Additional observations from a re-analysis of the deposited data

Results flagged for a closer look

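Some values of 1 library lay far from the other 3 of a WH group, by the ratio of the gap to the nearest library over the range of the group, set against Dixon's critical value for 4 libraries. Of 104 groups of values tested, 12 passed, where chance gives about 1 in 20. In the WH mylz2+ libraries these were MCAM (0.834, replicate 2 low), PDLIM5 (0.856, replicate 1 low) and UCP2 (0.872, replicate 4 low). In the WH sox10+ libraries they were MT-ATP6 (0.867, replicate 4 high), ssuh2rs1 (0.912, replicate 3 high) and TBX1 (0.856, replicate 3 high). Sums of members were also set apart by WH mylz2+ replicate 4, which was the high library for the adhesion and cytoskeleton group (0.98) and for the signalling and guidance group (0.902). Among marker sums, those of epithelium in WH mylz2+ cells passed (0.861), as did those of bone, tendon and fibroblast (0.87), photoreceptor and lens (0.972) and dissociation and immediate early genes (0.838) in WH sox10+ cells.

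For 12 genes given here, from the pathway lists and outside the members, the change in mylz2+ cells differed from that in sox10+ cells by the interaction test of edgeR. CPT1B differed by -2.75 on the log2 scale (adjusted p = 0.000650, edgeR), kept in all 20 alternatives. kirrel3l, an adhesion gene of myoblast fusion, differed by -1.36 (adjusted p = 0.0124, edgeR) and kept its call in every leave-one-out fit, but lost it under the replicate block (adjusted p = 0.141, edgeR). Without mutant mylz2+ replicate 3 the call of cpt1ab (-1.29) was lost, at an adjusted p of 0.0560 from edgeR.

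The other 9 differences rested on more libraries, and each was lost in 4 to 11 of the 14 fits with a library left out. Every one of them was lost without mutant mylz2+ replicate 3 (adjusted p up to 0.124, edgeR). They were -1.81 for six4b, -1.91 for six4a, -1.05 for MEF2A, -1.18 for FZD7, -1.13 for hadhaa, -1.07 for ACADVL, 1.46 for UBA6, 2.73 for BMP1 and -5.76 for KLHL30. Replicates 1 and 4 of the mutant mylz2+ cells and mutant sox10+ replicate 1 also ended most of these calls. KLHL30 was at most 0.129 CPM in WH sox10+ libraries, with 1 or more at 0, so its value depends on the prior count of the fit. For ACADVL, the mylz2+ cells had 424 ± 48.3 CPM in WH and 538 ± 52.7 CPM in mutants, and the sox10+ cells 109.6 ± 25.2 and 239 ± 22.8 CPM. Library totals in place of TMM factors ended the calls of cpt1ab, hadhaa, six4a, six4b, MEF2A, FZD7 and ACADVL. Those of CPT1B, kirrel3l, UBA6, BMP1 and KLHL30 were kept with library totals. The cause of these differences between cell types was not tested.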

How the results depend on the processing

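The 4553 genes called in mylz2+ cells stayed within 1.5 times under every alternative (3145 to 5975), but with library totals 79.5% of calls were higher in mutants, beside 48.1% with TMM factors. With library totals all genes moved to a median log2 change of 0.41 in mylz2+ cells, 0.12 in sox10+ cells and 0.31 for the interaction. The 797 genes called in sox10+ cells became 2442 by DESeq2, and between 293 and 1018 with 1 library left out. They were 293, 359 and 350 without mutant replicates 1, 3 and 4 and 467 without WH replicate 2, and 71.9% of calls were higher with library totals, beside 56.7%. The 301 interaction calls became 1348 by DESeq2, and between 102 and 443 with 1 library left out. With each mutant library left out they were 102 to 170, and 68.6% were higher with library totals, beside 35.2%. The 136 members became 58 genes where the median was not subtracted, and between 114 and 203 with 1 library left out. The 183 calls in the 5 lists were 125 to 213 throughout, with 74.5% higher under library totals, beside 39.3%. Myogenic calls dropped from 21 to 12 with library totals. Of 490 refits of the named members in mylz2+ cells, 39 moved by over the replicate spread and 0 reversed, and of 455 in sox10+ cells 3 moved. The rule chose the members by their fall and separate libraries in mylz2+ cells, so nothing is read from the absence of reversals. The causes of these shifts were not tested.

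Same-numbered samples did not deviate together. With the replicate block 3742 genes were called in mylz2+ cells (3286 with the description numbers), 174 in sox10+ cells and 46 in the interaction. In the 5 lists the block gave 149 calls (145 with the description numbers), 10 in the Wnt list (11) and 12 in the TGF-beta list (10). Of the 136 members it called 3 as lower in mylz2+ than in sox10+ cells, beside 37 without it, and of the copies 8 fell (6 with the description numbers). It ended 9 of the 12 differences between cell types given above, those of UBA6, hadhaa, cpt1ab, MEF2A, six4b, kirrel3l, BMP1, FZD7 and ACADVL (adjusted p between 0.139 and 0.246, edgeR). The mylz2+ call of BMP1 and, with the description numbers, that of the CTPS1 copy were also lost.

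Libraries were amplified from 1500 or 7000 cells and there were 3 mutant libraries per cell type, and the 95% intervals of the members had median half-widths of 0.53 (mylz2+) and 0.72 (sox10+) on the log2 scale. The planned comparison of promoter motifs was not run.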
